A study of Rattus norvegicus with 4 samples.

Results

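The genes described here encode the subunits of voltage-gated calcium, potassium and sodium channels and of the other potassium channels. They were taken from the count table by gene symbol: the calcium families Cacna1, Cacna2d, Cacnb and Cacng, all symbols that begin with Kcn and a family letter, and the sodium families Scn alpha and Scn beta. Kcnj8 was left out by rule. This gave 133 of 24005 genes, of which 26 were calcium, 93 potassium and 14 sodium channel genes. RNA came from cartilage of rats of the outbred Sprague Dawley stock, all of them male and 8 to 12 weeks old. In the osteoarthritis group, 2 libraries carried the disease label osteoarthritis and the treatment label XGS, which the labels spell out as Xiaogu San. The control group held 2 libraries labelled healthy and control. The series' text gives monosodium iodoacetate as the inducing agent, a metabolic poison used in rodent joints to kill chondrocytes. No library was labelled as osteoarthritis without the preparation, so disease and treatment cannot be told apart. The design text calls the normal animals mice, whereas every sample label says rat, and a species difference was not tested. Separate animals are not stated for the libraries, so p-values here measure no more than the scatter of these 4 samples, which may be technical.

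Voltage-gated channels open when the membrane depolarises. Each has a pore-forming alpha subunit, and auxiliary subunits carry it to the membrane and tune its gating. Calcium channels couple depolarisation to contraction, secretion and gene regulation, sodium channels carry the action potential, and potassium channels set the resting potential and return the membrane to it. Cells of cartilage are not classed as excitable, but chondrocytes are known to use potassium and calcium channels in volume control and mechanical responses. The joint also holds vessels, nerve fibres, fat, tendon, muscle and marrow, and each of those has channels of its own.

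The libraries held 24492412 and 25994449 counts in osteoarthritis and 28156020 and 28270779 counts in control. Of 8 chondrocyte markers none was at 0 in any library, and 3 of the 8 lay below both controls. Their summed level was 3984 and 10188 CPM (read counts scaled to library size with TMM factors) in osteoarthritis and 19063 and 31140 CPM in control. Col2a1 made up most of the control sums, with 13919 and 26813 CPM there and 3431 and 385 CPM in osteoarthritis. The markers Acan, Sox9, Col11a1 and Comp were above both controls in osteoarthritis replicate 2 and below both in replicate 1, so the list had no common direction. Markers of marrow blood cells were lower in both osteoarthritis libraries: 5 erythroid markers summed to 32.2 and 377 CPM in osteoarthritis and to 3249 and 3859 CPM in control. These are bulk samples, so fewer cells of a type and less RNA per cell cannot be told apart.

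Detection of channel genes differed between the groups. At least 1 count was found for 119 and 112 of the 133 channel genes in the osteoarthritis libraries and for 72 and 85 in the control libraries. As a share of channel genes that is 89.5% and 84.2% in osteoarthritis, against 54.1% and 63.9% in control, while all genes stood at 80.3% and 73.8% in osteoarthritis, against 61.5% and 65.6% in control. Counts of 1 to 10 were found for 26 and 33 channel genes in osteoarthritis and for 6 and 13 in control, and over all genes for 3739 and 3596 in osteoarthritis and 494 and 1039 in control. Low counts were thus scarce in both control libraries, although these were the deeper ones, and the part of this in the values of weakly expressed channels was not tested. There were 14 channel genes, 10.5%, with counts in both osteoarthritis libraries and 0 in both controls, against 6.60% of all genes. The potassium genes Kcns2, Kcnk18, Kcnh3, Kcna10 and Kcnj3 were at 0 in every library.

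**Figure D1:**
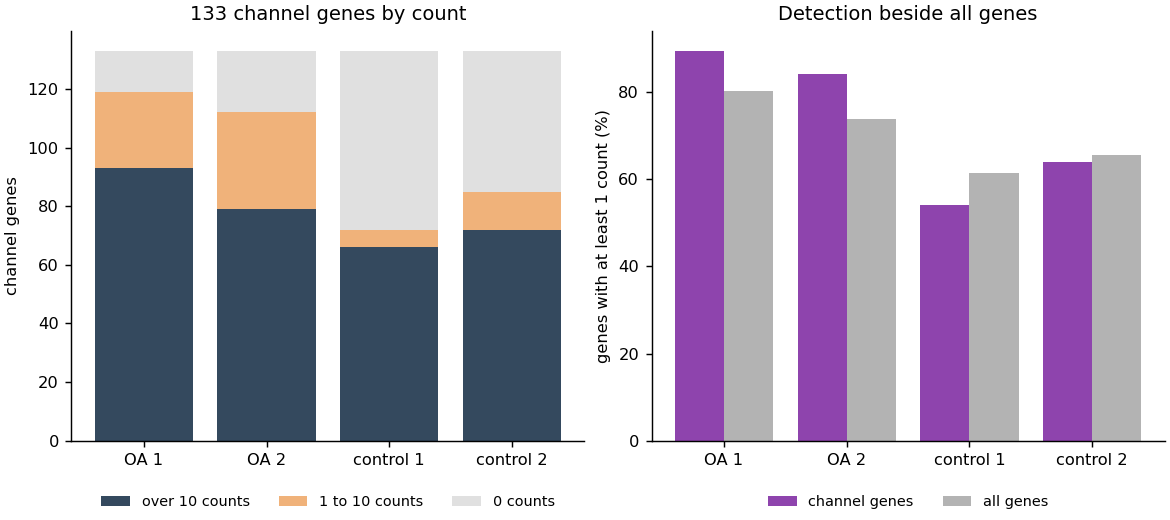
Left, the 133 channel genes by count (over 10, 1 to 10, or 0) in each library. Right, the percent of channel genes and of all genes with at least 1 count. Detected channel genes number 119 and 112 in the osteoarthritis (OA) libraries and 72 and 85 in the control libraries.

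The minimum on low counts kept 91 of the 133 channel genes, 21 calcium, 59 potassium and 11 sodium, among 15282 genes tested. Of the 91, 33 passed through the osteoarthritis libraries alone and 7 through the control libraries alone, and the filter bears on the direction of both sets. No channel gene passed edgeR's quasi-likelihood test after Benjamini-Hochberg adjustment in either direction, and neither did any other gene (0% of genes tested in each direction). DESeq2 called 7 channel genes higher, 7.69% of those tested, where it called 7.24% of all genes higher. It called 3 channel genes lower, 3.30%, where it called 8.26% of all genes lower. The higher ones included Cacna1c, Cacna1h, Cacna2d1, Scn3a, Kcnc2 and Kcne2, and the 3 lower ones were Kcnn4, Kcnk5 and Kcnk15. At an unadjusted p under 0.05, edgeR had 11 channel genes higher (12.1%, against 12.2% of all genes) and 3 lower (3.30%, against 11.2%). When osteoarthritis replicate 1 was left out, edgeR called 8 of 98 channel genes higher (against 8.16% of all genes) and 2 lower (against 6.95%). The 8 were Cacna1c, Cacna2d1, Cacnb3, Scn2b, Kcne4, Kcng1, Kcnj15 and Kcnma1, and the 2 were Kcnn4 and Kcnk5. When osteoarthritis replicate 2 was left out, it called 5 of 105 higher (against 4.88% of all genes), namely Cacna1c, Cacna1h, Cacna2d1, Scn3a and Kcnk3. It then called 3 lower (against 5.73%), namely Kcnn4, Kcnk5 and Kcnk12. Without either control library it called no gene at all, channel gene or other. With no filter beyond 1 count, it called 4 of 128 higher and 2 lower, Cacna1c, Cacna1h, Cacna2d1 and Scn3a above and Kcnn4 and Kcnk5 below, where 3.35% of all genes were higher and 3.72% lower.

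By level, 30 of the 91 channel genes, 33.0%, were above both controls in both osteoarthritis libraries, where 30.0% of all genes were. A further 9 channel genes, 9.89%, were below both controls in both, where 26.5% of all genes were. The share above is thus near that of all genes, while the share below is smaller. Among the 42 channel genes that passed the minimum in each group on its own, 11 lay above (26.2%, against 30.7% of such genes) and 4 below (9.52%, against 27.9%). By family, 8 of 21 calcium, 15 of 59 potassium and 7 of 11 sodium channel genes lay above, and all 9 below were potassium channel genes. These family counts rest in part on the filter, since 5 of the calcium, 23 of the potassium and 5 of the sodium channel genes passed it through osteoarthritis alone. Among genes that passed in each group, 6 of 13 calcium, 2 of 24 potassium and 3 of 5 sodium channel genes lay above, and 4 potassium channel genes below. The median log2 fold change, osteoarthritis over control, was 0.61 for calcium, 0.24 for potassium and 1.61 for sodium channel genes, against 0.15 for all genes tested. Leaving out 1 library moved the medians widely, to between 0.30 and 1.40 for calcium, -0.039 and 1.03 for potassium and 1.09 and 3.46 for sodium channel genes. Over genes that passed in each group the medians were 0.81 for calcium, 0.091 for potassium and 1.06 for sodium channel genes, against 0.13 for all such genes.

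**Figure D2:**
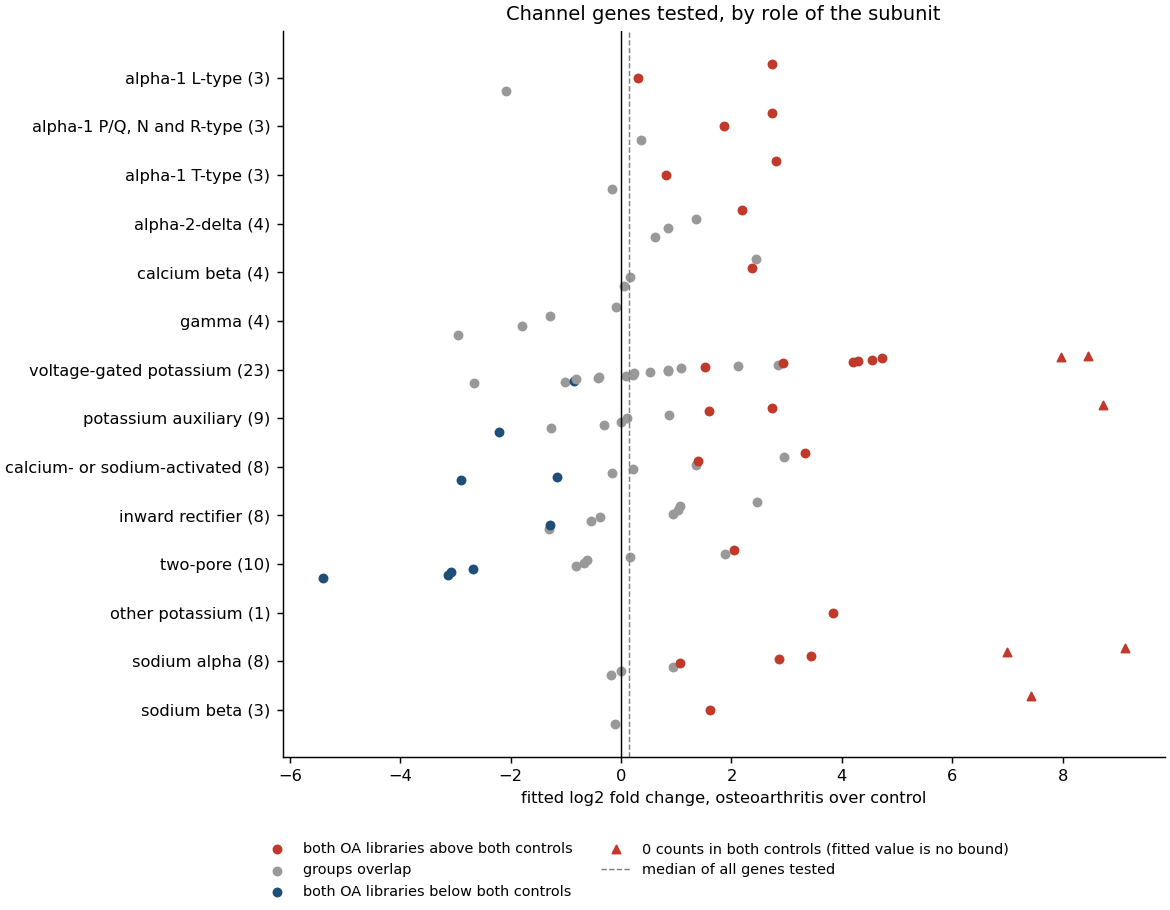
Fitted log2 fold change (osteoarthritis over control) of the 91 channel genes tested, in rows by role of the subunit, with the number tested in brackets. Red points lie above both controls in both osteoarthritis (OA) libraries, blue points below both, grey points overlap, triangles had 0 counts in both controls, and the dashed line is the median of all genes tested (0.15).

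The start regions of 4 of the 6 channel genes called most often are shown, and no call rests on their sequence. Of 12 alternative analyses, Cacna1c, Cacna2d1, Kcnn4 and Kcnk5 were called in 4 and Cacna1h and Scn3a in 3, and 12 other channel genes in 1 each. RefSeq windows of build GRCr8, 250 bases before to 50 after the annotated start, were found for 89 of the 133 channel genes, including Cacna1c, Cacna2d1, Scn3a and Kcnk5 but neither Kcnn4 nor Cacna1h. Capitals mark matches on either strand to 3 textbook promoter elements: the TATA box, searched as TATAAA, the CAAT box, searched as CCAAT, and the GC box, searched as GGGCGG in every window.
Cacna1c, chr4:154051699-154051998, minus strand: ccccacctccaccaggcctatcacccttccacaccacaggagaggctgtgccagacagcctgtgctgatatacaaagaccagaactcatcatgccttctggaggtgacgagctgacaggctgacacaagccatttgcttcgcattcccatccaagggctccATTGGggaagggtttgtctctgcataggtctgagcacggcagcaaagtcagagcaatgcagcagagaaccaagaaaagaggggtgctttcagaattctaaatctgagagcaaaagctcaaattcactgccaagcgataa
Cacna2d1, chr4:20330098-20330397, minus strand: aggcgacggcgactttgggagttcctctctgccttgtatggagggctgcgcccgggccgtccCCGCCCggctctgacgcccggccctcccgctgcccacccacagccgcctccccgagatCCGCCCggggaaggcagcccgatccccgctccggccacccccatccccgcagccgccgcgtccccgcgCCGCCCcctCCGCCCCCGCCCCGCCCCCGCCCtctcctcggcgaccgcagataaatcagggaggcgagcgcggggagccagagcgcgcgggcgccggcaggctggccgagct
Scn3a, chr3:70666149-70666448, minus strand: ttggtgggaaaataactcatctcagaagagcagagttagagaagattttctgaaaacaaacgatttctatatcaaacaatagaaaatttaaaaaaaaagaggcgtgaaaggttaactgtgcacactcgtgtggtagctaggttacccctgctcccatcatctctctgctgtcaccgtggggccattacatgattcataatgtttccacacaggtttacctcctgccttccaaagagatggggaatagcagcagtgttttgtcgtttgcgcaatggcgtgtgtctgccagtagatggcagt
Kcnk5, chr15:4171375-4171674, plus strand: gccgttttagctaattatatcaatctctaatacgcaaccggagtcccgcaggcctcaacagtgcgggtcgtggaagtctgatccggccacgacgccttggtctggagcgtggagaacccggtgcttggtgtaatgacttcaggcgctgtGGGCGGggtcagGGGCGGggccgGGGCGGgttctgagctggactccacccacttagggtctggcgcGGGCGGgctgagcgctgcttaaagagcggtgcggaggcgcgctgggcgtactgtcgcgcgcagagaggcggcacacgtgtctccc
The window of Cacna1c held 4 CG dinucleotides and 1 CAAT box match, and that of Scn3a held 7 CG dinucleotides and no match to these letters. Cacna2d1, for which the first of 3 listed windows is shown, held 41 CG dinucleotides and 7 GC box matches. Kcnk5 held 30 CG dinucleotides and 4 GC box matches. The GC box letters were found in 49 of the 98 windows of channel genes and in 33.1% of all 33469 windows. The CAAT box letters were found in 24.5% of the windows of channel genes and in 37.5% of all, and the TATA box letters in 4.08% and 14.2%. Windows of channel genes also had more G and C, with a median of 61.3% against 51.7% in all windows. Their median of CG dinucleotides was 13, against 7 in all windows. The part of base composition in the shares with a match was not tested. A match is a string of letters, not a known binding site. GC box letters occur in the window of a gene above the controls, Cacna2d1, and of a gene below them, Kcnk5.

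Of 10 genes for pore-forming calcium subunits 9 were tested, and 6 of these lay above both controls (against 30.0% of all genes) and none below (against 26.5%). Cacna1c and Cacna1h stood furthest apart. Cacna1c, the L-type pore of heart and smooth muscle, had 51.9 and 51.5 CPM in osteoarthritis and 7.46 and 8.09 CPM in control. Its libraries agreed closely within each group and the groups did not overlap. The log2 fold change was 2.73 ± 0.33 (SE) at an edgeR adjusted p of 0.0824 and a DESeq2 adjusted p of 3.78e-08, and leaving out any 1 library gave 2.62 to 2.80. Cacna1h, a T-type pore that opens near the resting potential and is known from pain fibres, had 24.0 and 16.8 CPM in osteoarthritis and 4.26 and 1.57 CPM in control. Both osteoarthritis libraries were well above both controls (log2 fold change 2.80 ± 0.68, edgeR adjusted p = 0.116, DESeq2 adjusted p = 0.0024). Cacna1g, another T-type pore, had 27.9 and 54.7 CPM in osteoarthritis and 21.0 and 26.1 CPM in control, so the groups were apart by a small margin (log2 fold change 0.81 ± 0.43, edgeR adjusted p = 0.325, 0.26 to 1.18 without any 1 library). The neuronal pores Cacna1b and Cacna1e were also above both controls, at no more than 1.22 CPM in any library. They passed the count minimum through the osteoarthritis libraries alone, so for them the filter bears on the direction. Cacna1d, an L-type pore of pacemaker and endocrine cells, had 6.89 and 6.53 CPM in osteoarthritis and 6.23 and 4.64 CPM in control. In the reference annotation Cacna1c overlaps Dcp1b and Cacna1h overlaps Tpsg1. Strand use in counting is not given in the sources used here, so reads from sequence that such pairs share cannot be told apart.

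Smooth muscle and pericyte markers stood higher in the same libraries as Cacna1c. The 9 markers summed to 5321 and 3426 CPM in osteoarthritis and to 2757 and 1143 CPM in control. Of the 9, 5 lay above both controls and none was at 0 in any library. Their part in the level of Cacna1c was not tested.

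Of the auxiliary calcium subunits, 1 of 4 alpha-2-delta genes, 1 of 4 beta genes and none of 4 tested gamma genes lay above both controls (against 30.0% of all genes). None lay below (against 26.5%). Cacna2d1, a target of the drug gabapentin, had 61.5 and 119.6 CPM in osteoarthritis and 22.9 and 16.8 CPM in control. The groups were apart (log2 fold change 2.19 ± 0.45, edgeR adjusted p = 0.0985, DESeq2 adjusted p = 0.000771), by 1.64 to 2.56 on the log2 scale without any 1 library. Per length of transcript it led the calcium family in both osteoarthritis libraries, with 17.4 and 25.0 FPKM, against 5.44 and 3.65 FPKM in control. Cacnb3, a beta subunit that traffics the pore, had 14.8 and 74.9 CPM in osteoarthritis and 3.80 and 13.5 CPM in control. Its groups were apart, but osteoarthritis replicate 1 lay close to control replicate 2 (log2 fold change 2.37 ± 0.97, edgeR adjusted p = 0.226, 0.78 without osteoarthritis replicate 2 and 3.57 without control replicate 2). It overlaps the tubulin gene Tuba1c in the annotation. Cacnb1, the beta subunit of skeletal muscle, overlaps Rpl19 and had 5.26 and 14.6 CPM in osteoarthritis and 13.2 and 4.53 CPM in control.

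Of 10 sodium pore genes 8 were tested, and 5 lay above both controls, as did 2 of 3 tested beta subunit genes. Over all genes tested the share above was 30.0%. None lay below, where 26.5% of all genes did. Of those tested, 4 pore genes and 1 beta subunit gene passed the count minimum through the osteoarthritis libraries alone. For these the filter bears on the direction. Scn3a, a pore known from developing and injured neurons, had 31.1 and 18.2 CPM in osteoarthritis and 2.25 and 4.53 CPM in control, without overlap. Its log2 fold change was 2.86 ± 0.60 (edgeR adjusted p = 0.101, DESeq2 adjusted p = 0.000819), and 2.38 to 3.46 without any 1 library. Scn8a, a pore of axon nodes, had 18 and 13 counts and the beta subunit Scn3b 34 and 10 counts in osteoarthritis, and both were at 0 in control. Against a floor of 3 counts per control library, the ratio was 5.31-fold for Scn8a and 7.18-fold for Scn3b. These limits cover counting error only, and low counts were scarce in both controls. Both genes passed the count minimum through the osteoarthritis libraries alone. The limit for Scn3b was 3.92-fold without osteoarthritis replicate 1. Scn4a, the pore of skeletal muscle, had 1.09 and 5.88 CPM in osteoarthritis and 0.246 and 0.384 CPM in control. Its log2 fold change was 3.45 ± 1.41 (edgeR adjusted p = 0.226), and 1.78 to 4.16 without any 1 library. Scn4a was among the pore genes that passed the count minimum through the osteoarthritis libraries alone.

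The pores of pain-sensing neurons were close to the limit of counting. Scn9a had 15 and 5 counts in osteoarthritis and 0 and 3 in control, and Scn10a 9 and 1 counts in osteoarthritis and 0 and 0 in control, so neither was tested. Scn11a had 28 and 3 counts in osteoarthritis and 35 and 0 in control, and its groups overlapped. The 10 neuron markers summed to 24.0 and 54.7 CPM in osteoarthritis and 16.9 and 71.2 CPM in control. Of the 5 that could be tested, 2 lay above both controls and 1 below, and 2 and 2 of the 10 were at 0 in the osteoarthritis libraries and 3 and 4 in the control libraries. The cell bodies of sensory neurons lie in ganglia outside the joint.

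Other sodium channel genes differed between libraries of the same group. Scn2b, a beta subunit, had 10.5 and 43.6 CPM in osteoarthritis and 7.53 and 10.2 CPM in control, so that osteoarthritis replicate 1 lay at the level of control replicate 2 (log2 fold change 1.61 ± 0.74, edgeR adjusted p = 0.267, 0.26 without osteoarthritis replicate 2). Scn7a, a sodium sensor of glia that is not voltage-gated, split within osteoarthritis, with 15.6 and 1.30 CPM, against 11.3 and 5.72 CPM in control. The Schwann cell marker Cdh19 also split there, with 4.41 and 0.0432 CPM in osteoarthritis and 1.30 and 1.38 CPM in control. Pmp22, of the same list, did not, with 252 and 336 CPM in osteoarthritis and 152 and 117 CPM in control. The list thus had no common direction. The 8 Schwann cell markers summed to 988 and 477 CPM in osteoarthritis and 394 and 369 CPM in control, with none at 0 in any library. Their part in the level of Scn7a was not tested.

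**Figure D3:**
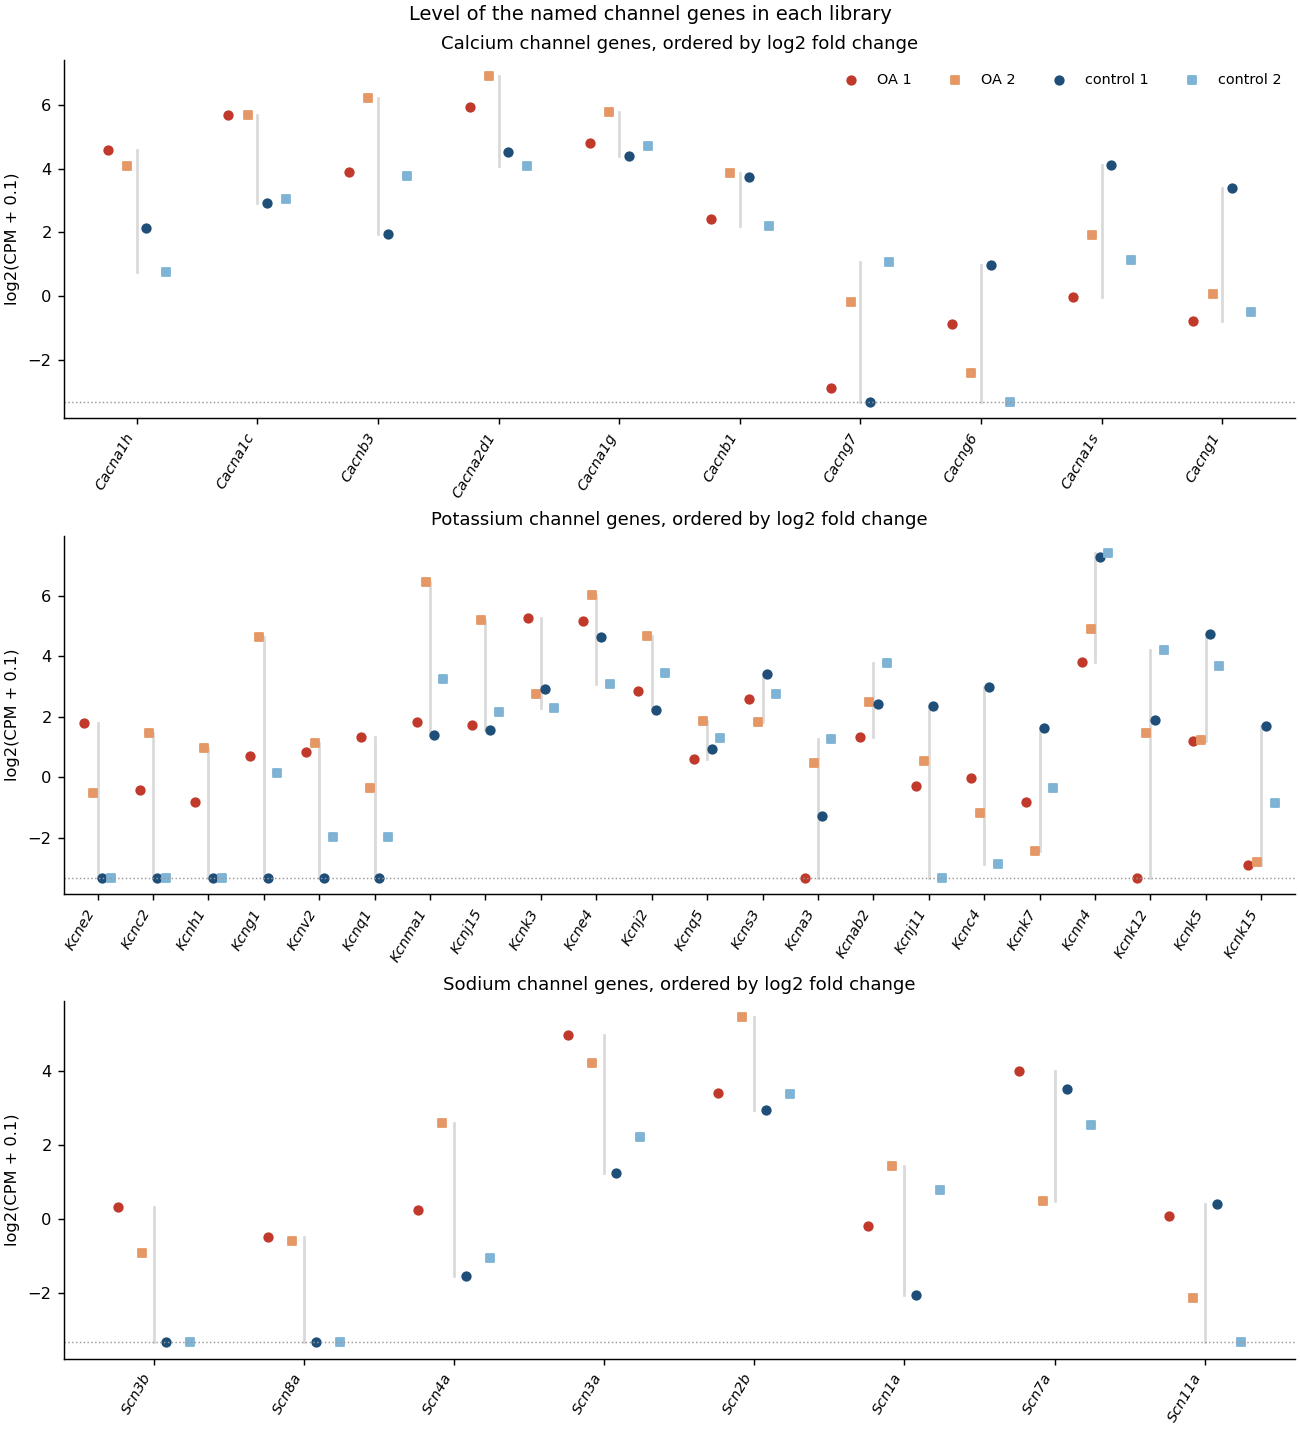
Level of 40 tested channel genes that the naming rule picks, as log2(CPM + 0.1) in each library, with osteoarthritis (OA) in red and orange and control in dark and light blue. The dotted line marks 0 counts. Cacna1c, Cacna1h, Cacna2d1 and Scn3a lie above both controls, Kcnn4 and Kcnk5 below both, and Kcnma1 is high in OA 2 alone.

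Kcnn4 dominated the potassium channel transcripts of the control libraries and was much lower in osteoarthritis. This calcium-activated channel, known as the Gardos channel of red cells and also used by lymphocytes and macrophages, had 13.9 and 29.5 CPM in osteoarthritis and 153 and 171 CPM in control. The groups were far apart (log2 fold change -2.90 ± 0.48, edgeR adjusted p = 0.0835, DESeq2 adjusted p = 1.41e-06), and the log2 fold change lay between -3.54 and -2.49 without any 1 library. Kcnn4 held 5.26% and 9.34% of the summed FPKM of the potassium family in osteoarthritis, against 47.3% and 51.1% in control. The sum itself was 141 and 125 FPKM in osteoarthritis and 145 and 137 FPKM in control, so the family total differed far less than its make-up.

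Of 12 genes for calcium- or sodium-activated channels 8 were tested, with 2 above both controls (against 30.0% of all genes) and 2 below (against 26.5%). Kcnn3, a small-conductance channel, had 11.1 and 5.83 CPM in osteoarthritis and 0 and 1.69 CPM in control. Its log2 fold change was 3.33 ± 1.87 (edgeR adjusted p = 0.347). Kcnn3 passed the count minimum through the osteoarthritis libraries alone, so the filter bears on its direction.

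Marrow and immune markers were low in the same libraries as Kcnn4. All 5 erythroid markers lay below both controls, as did 5 of 6 lymphocyte markers, whose sum was 20.5 and 28.1 CPM in osteoarthritis and 376 and 540 CPM in control. Macrophage markers, of which 4 of 5 lay below both controls, summed to 546 and 1275 CPM in osteoarthritis and 4964 and 7277 CPM in control. Lyz2 made up most of these sums, with 382 and 1100 CPM in osteoarthritis and 4705 and 6879 CPM in control. Cd14 had 23.9 and 49.4 CPM in osteoarthritis and 58.5 and 53.9 CPM in control, and Adgre1 overlapped. No marker of these 3 lists was at 0 in any library. Their part in the level of Kcnn4 was not tested.

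**Figure D4:**
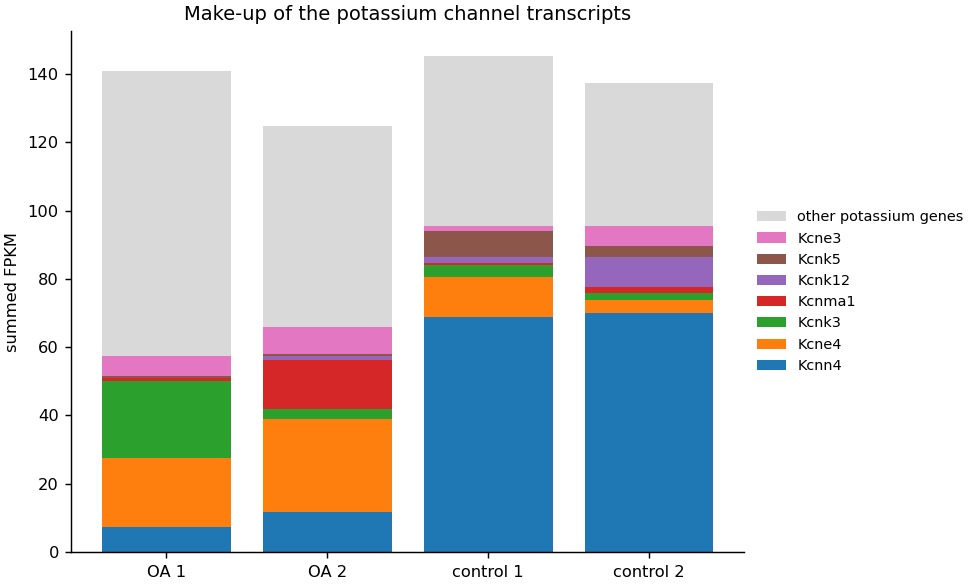
Summed FPKM of the 93 potassium channel genes in each library, split into 7 abundant members and the rest. Kcnn4 fills 5.26% and 9.34% of the osteoarthritis (OA) bars and 47.3% and 51.1% of the control bars.

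The tandem-pore potassium channels, which carry the resting leak current, held 4 of the 9 channel genes below both controls. Of 14 such genes, 10 were tested, 4 lay below both controls (against 26.5% of all genes) and 1, Kcnk4, above (against 30.0%). Kcnk7, Kcnk12 and Kcnk15, 3 of the 4 below, passed the count minimum through the control libraries alone, and Kcnk4 through the osteoarthritis libraries alone, so for those genes the filter bears on the direction. Kcnk5, a leak channel that opens in alkaline medium, had 2.17 and 2.25 CPM in osteoarthritis and 26.3 and 12.5 CPM in control. Its log2 fold change was -3.13 ± 0.61 (edgeR adjusted p = 0.0923, DESeq2 adjusted p = 9.7e-05) and lay between -3.56 and -2.56 without any 1 library. Kcnk15 had 1 count in each osteoarthritis library and 90 and 12 counts in control (log2 fold change -5.40 ± 1.90, edgeR adjusted p = 0.184, DESeq2 adjusted p = 0.04). Kcnk12 had 0 and 61 counts in osteoarthritis and 102 and 483 in control, so both groups were spread widely (edgeR adjusted p = 0.41). Kcnk7 had 14 and 2 counts in osteoarthritis and 85 and 18 in control (edgeR adjusted p = 0.392). Kcnk2, a stretch-activated leak channel, overlapped, with 4.51 and 11.8 CPM in osteoarthritis and 5.74 and 19.4 CPM in control.

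Several voltage-gated potassium genes were counted in osteoarthritis and were at or near 0 in control. Of 40 such genes 23 were tested. Of the 23, 8 lay above both controls (34.8%, near the 30.0% of all genes) and 1 below (4.35%, against 26.5%). The count minimum was passed through the osteoarthritis libraries alone by 11 of the 23, Kcnc2, Kcnh1, Kcnq1 and Kcnv2 among them. For those genes the filter bears on the direction. Kcnc2, a fast delayed rectifier, had 19 and 61 counts in osteoarthritis and 0 in both controls (edgeR adjusted p = 0.159, DESeq2 adjusted p = 0.0232). Its ratio over the floor of 3 counts was 14.9-fold, or 5.84-fold without osteoarthritis replicate 2. Kcnh1, a channel of the ether-a-go-go family, had 14 and 43 counts in osteoarthritis and 0 in control (edgeR adjusted p = 0.176). Its ratio over that floor was 10.6-fold, or 4.3-fold without osteoarthritis replicate 2. Kcnq1, the pore of a slow cardiac and epithelial current, had 72 and 16 counts in osteoarthritis and 0 and 4 in control. Kcnv2, a subunit that is silent alone and modifies other voltage-gated pores, had 50 and 48 counts in osteoarthritis and 0 and 4 in control. Kcns3, another modifier, was the 1 voltage-gated gene below both controls, with 5.97 and 3.46 CPM in osteoarthritis and 10.5 and 6.56 CPM in control (log2 fold change -0.85 ± 0.66, edgeR adjusted p = 0.49). Kcna3, the channel of T cells, had 0 and 30 counts in osteoarthritis and 9 and 60 in control.

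Of 12 auxiliary potassium genes 9 were tested, with 3 above both controls (against 30.0% of all genes) and 1 below (against 26.5%). Of the 9 tested, 3 passed the count minimum through osteoarthritis alone and 1 through control alone. For those genes the filter bears on the direction. Kcne4, an inhibitory partner of voltage-gated pores, was abundant per length. It had 35.5 and 65.0 CPM in osteoarthritis and 24.7 and 8.40 CPM in control, groups apart (log2 fold change 1.60 ± 0.63, edgeR adjusted p = 0.21, 1.03 to 2.52 without any 1 library), and led the potassium family in osteoarthritis replicate 2 with 27.2 FPKM. Kcne2, a partner of cardiac and stomach pores, had 99 and 14 counts in osteoarthritis and 0 in both controls (edgeR adjusted p = 0.158, DESeq2 adjusted p = 0.0132). It passed the count minimum through the osteoarthritis libraries alone. Its ratio over the floor of 3 counts was 18.0-fold, or 5.48-fold without osteoarthritis replicate 1. Kcnab2, a cytoplasmic beta subunit, had 2.41 and 5.49 CPM in osteoarthritis and 5.21 and 13.7 CPM in control, and the groups overlapped. Kcnip1 and Kcnmb1 overlap each other in the annotation, so reads from sequence they share cannot be told apart. Kcnip1 had 275 and 39 counts in osteoarthritis and 1 and 42 in control, and passed the count minimum through the osteoarthritis libraries alone. Kcnmb1, the smooth muscle beta subunit of the large-conductance calcium-activated channel, had 32.4 and 13.9 CPM in osteoarthritis and 14.0 and 4.10 CPM in control.

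Large differences also lay between the osteoarthritis libraries. Of the 91 tested channel genes, 17.6% differed at least 4-fold between the 2 osteoarthritis libraries and 15.4% between the 2 controls, against 8.12% and 6.50% of all genes, on CPM + 0.5. The 16 that did so in osteoarthritis were higher in replicate 1 in 6 cases and in replicate 2 in 10. Kcnma1, the pore of the large-conductance calcium-activated channel, had 3.46 and 88.2 CPM in osteoarthritis and 2.53 and 9.36 CPM in control. Osteoarthritis replicate 1 thus lay between the controls, and the value of 2.94 ± 1.49 on the log2 scale (edgeR adjusted p = 0.301) was -0.77 without replicate 2 and 3.83 without replicate 1. Kcng1, a silent modifier, had 1.53 and 24.8 CPM in osteoarthritis and 0 and 0.997 CPM in control. It passed the count minimum through the osteoarthritis libraries alone, so the filter bears on its direction. Kcnj15, an inward rectifier, had 3.22 and 36.6 CPM in osteoarthritis and 2.85 and 4.33 CPM in control. Of 14 inward rectifier genes 8 were tested, with none above both controls (against 30.0% of all genes) and 1 below (against 26.5%). The gene below passed the count minimum through the control libraries alone, so the filter bears on its direction. Kcnj2, which holds the resting potential of many cells, had 7.19 and 25.0 CPM in osteoarthritis and 4.54 and 10.9 CPM in control. In the other direction, Kcnk3, a leak channel closed by acid, had 38.3 and 6.65 CPM in osteoarthritis and 7.43 and 4.79 CPM in control (edgeR adjusted p = 0.277). Kcna5, a delayed rectifier of atrium and vessels, had 9.02 and 0.389 CPM in osteoarthritis and 2.43 and 1.99 CPM in control.

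Marker lists split between the same libraries. The 6 adipocyte markers summed to 5183 and 36.4 CPM in osteoarthritis and 1050 and 274 CPM in control, with 1 marker at 0 in control replicate 1. The 5 tendon and ligament markers summed to 351 and 7387 CPM in osteoarthritis and 2439 and 2451 CPM in control. The 6 fibroblast markers summed to 1425 and 5558 CPM in osteoarthritis and 2449 and 1545 CPM in control. Lum, with 328 and 2972 CPM, and Dcn, with 567 and 1764 CPM, made up most of the fibroblast sums in osteoarthritis. Pi16, with 24.6 and 9.20 CPM there, and Cd34, with 140 and 121 CPM, went the other way. Their part in the split of Kcnma1, Kcng1, Kcnj15, Kcnk3 and Kcna5 was not tested.

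Several channel genes known from skeletal muscle were high in control replicate 1. Cacna1s, the voltage sensor of muscle contraction, had 0.882 and 3.72 CPM in osteoarthritis and 17.4 and 2.11 CPM in control, and Cacng1, its gamma subunit, 0.475 and 0.951 CPM in osteoarthritis and 10.5 and 0.614 CPM in control. The log2 fold changes of -2.09 ± 1.26 for Cacna1s (edgeR adjusted p = 0.38) and -2.96 ± 1.54 for Cacng1 (edgeR adjusted p = 0.313) turned to 0.06 for Cacna1s and 0.15 for Cacng1 without control replicate 1. Kcnc4, a rapidly inactivating channel of muscle and nerve, had 26 and 8 counts in osteoarthritis and 222 and 1 in control. Kcnj11, the pore of the ATP-sensitive potassium channel, had 21 and 31 counts in osteoarthritis and 144 and 0 in control. Scn4a did not share this pattern, with 32 and 136 counts in osteoarthritis and 7 and 10 in control, and neither did Cacnb1, which was highest in osteoarthritis replicate 2. The 10 skeletal muscle markers summed to 141 and 384 CPM in osteoarthritis and 2458 and 103 CPM in control, with Myh7 at 0 in control replicate 2. Their part in these levels was not tested, and the muscle genes in the plot of skeletal muscle channels were grouped after their values were seen.

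**Figure D5:**
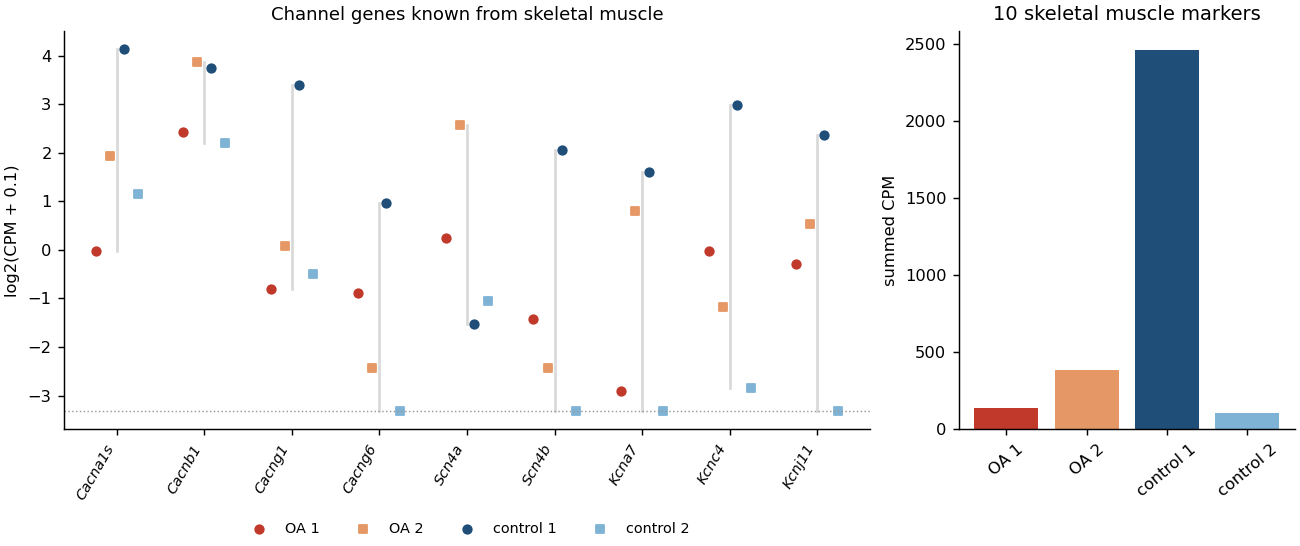
Left, 9 channel genes known from skeletal muscle as log2(CPM + 0.1) in each library, with the dotted line at 0 counts. Right, the summed CPM of 10 skeletal muscle markers. Control replicate 1 is highest for the marker sum (2458 CPM) and for 7 of the 9 channel genes, the exceptions being Scn4a and Cacnb1, which are highest in osteoarthritis (OA) replicate 2.

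Other ion channel and calcium handling genes, from a list chosen by function, gave a setting for the channel subunits. Of 74 such genes 67 were tested. None passed edgeR's test after adjustment, and at an unadjusted p under 0.05 there were 10 higher and 8 lower (against 12.2% and 11.2% of all genes). Calcium store and pump genes included Itpr1, the inositol trisphosphate receptor, with 67.7 and 150.1 CPM in osteoarthritis and 19.6 and 27.7 CPM in control (log2 fold change 2.20, edgeR adjusted p = 0.109). Slc8a1, a sodium-calcium exchanger, had 33.5 and 66.7 CPM in osteoarthritis and 7.92 and 16.0 CPM in control (2.07, edgeR adjusted p = 0.13). Its relative Slc8a3 stood the other way, with 4.68 and 5.14 CPM in osteoarthritis and 27.1 and 39.2 CPM in control (-2.76, edgeR adjusted p = 0.0835). Abcc9, a regulatory partner of the ATP-sensitive potassium channel, had 75.7 and 112 CPM in osteoarthritis and 20.3 and 31.3 CPM in control (1.87, edgeR adjusted p = 0.104). Of 10 sodium-potassium pump genes 6 lay below both controls (against 26.5% of all genes), 1 above (against 30.0%), and 3 overlapped.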

How the data were processed

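Polyadenylated RNA of 4 cartilage samples was sequenced. Per the submitters' processing notes, the tools were fastp (trimming software) and TopHat (a spliced aligner), and the build was the human hg38, although the gene symbols are rat symbols. How reads were counted, with which annotation and strand setting, is not given in the sources used here. The authors deposited raw read counts per gene and FPKM values, which equalled the counts per column total and one gene length per gene and so are no second measurement.

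The counts went into edgeR 4.0.16 (R 4.3.3): filterByExpr (15282 genes kept), TMM scaling, quasi-likelihood F test, two-sided, Benjamini-Hochberg adjustment over all genes, threshold 0.05. The standard error is the fold change over the root of F. Alternatives used DESeq2 1.42.0 and limma 3.58.1, other scalings and filters, and fits without each library, where the lone sample is taken to vary like the other group. With 2 against 2, the smallest exact permutation p is 0.333, and no such test was run.

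Named genes were, per direction, the 4 calcium, 8 potassium and 3 sodium genes of smallest unadjusted p, the 3 most abundant per family, and a set chosen by known role; 42 of these are given, and a few others are not reported here. Besides these, Cacna1b, Cacna1d, Cacna1e, Kcna5, Kcnip1, Kcnmb1, Kcnn3, Kcnk2 and Kcnk4 were named after their values were seen. The members and all lists were chosen with earlier results of these data known. All 133 symbols matched RefSeq symbols of assembly GRCr8, and 19 genes overlap another counted gene there, the named Kcnab2, Kcnk15, Kcnv2 and Scn10a among them. No molecular identifiers are named, so floors cover counting error only.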

Additional observations from a re-analysis of the deposited data

How the results depend on the processing

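No paired analysis was possible because the labels give the groups no shared replicate numbers. With all libraries, edgeR called 0 channel genes higher and 0 lower; DESeq2 called 7 and 3, and edgeR with no filter beyond 1 count called 4 and 2. Leaving out 1 library, between 0 and 8 were called higher and between 0 and 3 lower. Cacna1c, Cacna2d1, Kcnn4 and Kcnk5 were called by both of those other fits, and their log2 fold changes kept their sign without any 1 library. Without either control no gene was called, channel gene or other. The counts above and below the controls were 30 and 9, 27 to 30 and 9 to 11 under the other scalings, and 40 to 53 and 16 to 27 without 1 library, where fewer libraries have to separate. An alternative chosen after seeing the data took the 42 genes that pass the minimum in each group. Of these, 11 lay above (26.2%, against 30.7% of such genes) and 4 below (9.52%, against 27.9%).

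The calcium median (0.61) stayed above 0 in every alternative and was 0.30 to 1.40 without 1 library. With log2(FPKM + 1) it was 0.160, near the 0.155 of all genes in that setting. The potassium median (0.24) was 0.47 with library size alone, 0.52 with log2(FPKM + 0.1), 0.91 with no filter, 0.091 over genes that pass in each group, and -0.039 to 1.03 without 1 library. The sodium median (1.61) was 1.0 with at least 50 counts, 1.16 and 0.30 with limma on log2(FPKM + 0.1) and log2(FPKM + 1), 2.10 with no filter, 1.06 over genes that pass in each group, and 1.09 to 3.46 without 1 library. The fold changes of the FPKM fits are on the log2(value + pseudocount) scale, which understates low genes. For the other moves the cause was not tested. The median of all genes was 0.27 with library size alone and 0.05 with upper quartile factors, against 0.15. It was 0.42 with no filter, 0.14 with at least 50 counts, and 0.24 with log2(FPKM + 0.1). Over genes that pass in each group it was 0.13, and without 1 library -0.081 to 0.21.

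Of the named genes that turned direction, Kcnma1 and Kcnj15 were called higher without osteoarthritis replicate 1. The log2 fold changes of opposite sign were with DESeq2 Scn7a 0.0046, with RLE factors Scn7a 0.0052, with library size alone Scn11a 0.018 and Scn7a 0.26, with log2(FPKM + 0.1) Scn11a 0.086 and Kcnj11 0.040, with log2(FPKM + 1) Scn11a 0.0037, with no filter Scn7a 0.0034. Leaving out 1 library gave, from lowest to highest, Cacng1 -3.86 to 0.15, Cacna1s -3.45 to 0.056, Cacng6 -3.35 to 5.82, Kcnc4 -3.64 to 3.80, Scn11a -2.19 to 6.84, Scn7a -2.73 to 0.89, Kcnj11 -2.29 to 7.73, Kcnq5 -0.54 to 0.71, Scn1a -0.15 to 3.55, Cacng7 -4.70 to 6.46, Cacnb1 -0.74 to 1.07, Kcna3 -8.20 to 1.02, Kcnj15 -0.15 to 3.31, Kcnma1 -0.77 to 4.18 and Kcnj2 -0.087 to 1.84. Scarce counts of 1 to 10 in control limit what the zeros there can show.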
